A study of Homo sapiens with 18 samples.

Results

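The genes described here are 37 human genes of the unfolded protein response and of protein folding in the endoplasmic reticulum (ER), taken by a fixed list of symbols from the 63677 gene identifiers in the tables of 18 tumour libraries. All 37 were found. Of these, 36 reached 1 TPM (the length-scaled share of a gene among all transcripts of a library) in at least 3 libraries and were tested. The gene left out is DERL3, a membrane protein of ER-associated degradation, which was listed at 0 in 16 libraries and at 0.0663 and 0.0321 TPM in 2 of the LAN-1 control libraries.

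The libraries are bulk poly(A) RNA sequencing of tumours that grew in mice from 3 human neuroblastoma cell lines, SKNAS, LAN-1 and KELLY. Each line has an arm named Hmx1 and a control arm, with 3 libraries per arm and 6 groups in all. Replicate numbers below follow the order of the libraries within a group and are not part of the labels. The labels give no treatment agent, do not say whether the homeobox gene HMX1 was raised or lowered, and do not give the strain, age or number of the mice. They do not tie the libraries of a group to separate mice, so every p-value rests on library-to-library spread, part of which may be technical.

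Secreted and membrane proteins fold in the ER with the help of chaperones, lectins and disulfide isomerases, and proteins that fail to fold are taken out to the cytosol and degraded. When unfolded proteins build up, the membrane sensors IRE1 (gene ERN1), PERK (gene EIF2AK3) and ATF6 become active. IRE1 splices the XBP1 transcript into the form that encodes an active transcription factor, PERK lowers translation and lets ATF4 be made, and ATF6 is cut to release a transcription factor. XBP1 and ATF6 raise chaperone and degradation genes through promoter elements such as the ER stress response element, and ATF4 raises amino acid synthesis genes and DDIT3. Splicing, phosphorylation and cleavage do not show in tables of 1 value per gene, so the values below are transcript levels and not sensor activity.

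HMX1 itself was at 0.193 to 1.24 TPM in SKNAS Hmx1 and was listed at 0 in the 3 SKNAS control libraries. It was at 11.45 to 16.5 TPM in LAN-1 Hmx1 against 11.1 to 11.9 TPM in LAN-1 control, and at 4.68 to 6.40 TPM in KELLY Hmx1 against 3.92 to 7.72 TPM in KELLY control. All 12 neuroblastoma markers averaged at least 1 TPM in every group, except that TH, the rate-limiting enzyme of catecholamine synthesis, was below 1 TPM in SKNAS Hmx1. Plasma cells are rich in ER chaperones, and 5 of their 6 markers, JCHAIN, MZB1, IGKC, IGHG1 and TNFRSF17, averaged below 1 TPM in every group. The mitochondrial share of TPM ran from 4.47% to 33.8%, and KELLY control replicate 1 stood at the top of that range. TPM keeps no read depth, so no counting error can be given, and in bulk tumours fewer cells of a type and less RNA per cell cannot be told apart.

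The 37 genes together took 0.414% to 0.430% of all TPM in SKNAS Hmx1, against 0.477% to 0.526% in SKNAS control. In LAN-1 they took 0.367% to 0.442% in Hmx1 and 0.393% to 0.424% in control, and in KELLY 0.321% to 0.407% in Hmx1 and 0.203% to 0.342% in control. The arms were apart in SKNAS, with Hmx1 below, and overlapped in LAN-1 and KELLY. HSP90B1, the ER form of HSP90, was the most abundant member in SKNAS, at 777 ± 88.2 TPM in Hmx1 and 895 ± 40.4 TPM in control (SD, n = 3 in every group). ATF4 was the most abundant in LAN-1, at 680.4 ± 15.1 TPM in Hmx1 and 715 ± 28.6 TPM in control, and in KELLY, at 442 ± 20.8 TPM in Hmx1 and 396 ± 46.8 TPM in control. The map of all members by library shows these differences between lines and, within KELLY control, 1 library that is low for most members.

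**Figure D1:**
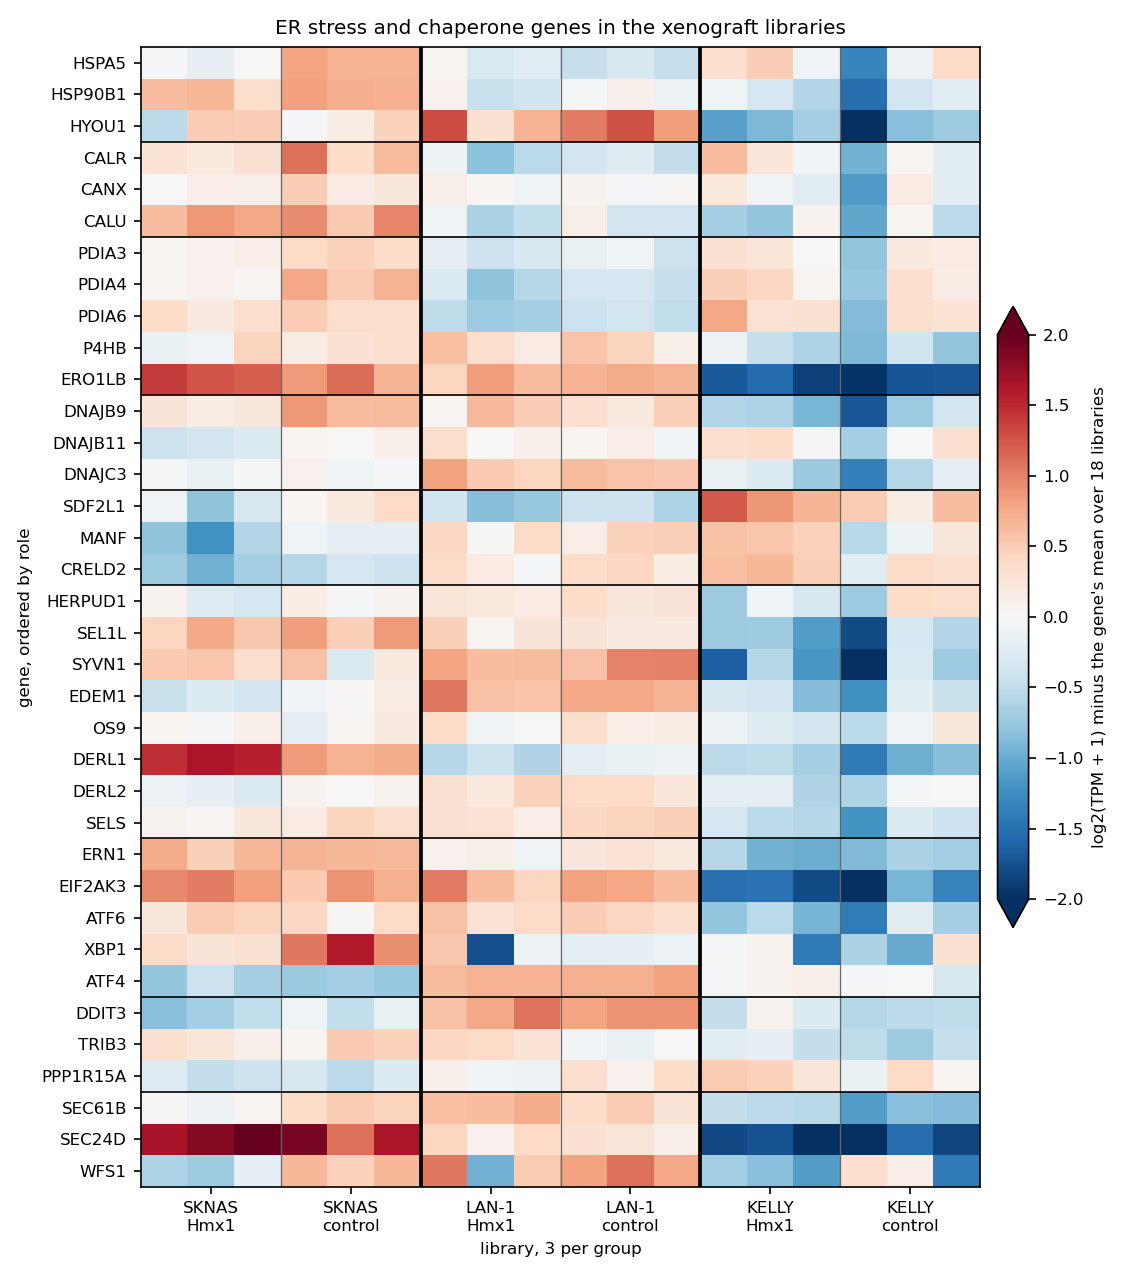
Each row is 1 of the 36 tested genes and each column 1 of the 18 libraries, with Hmx1 left of control in each line; colour is log2(TPM + 1) minus the gene's mean over the 18 libraries, and horizontal lines part the roles. SEC24D and DERL1 are highest in SKNAS, ATF4 and DDIT3 in LAN-1, and KELLY control replicate 1, the first column of that group, is low for most genes.

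In SKNAS the degradation gene DERL1 rose in Hmx1 tumours, and the stress protein MANF and the translocation gene SEC61B fell. The other 33 members did not pass the test, with log2 changes between -1.09 for WFS1 and 0.40 for ERO1LB, and most chaperones had lower values in Hmx1. The background in that comparison was 4.96% of the 18650 genes tested for a rise and 3.8% for a fall, so 1 rise and 2 falls among 36 is near the background. The median log2 change of the members was -0.21, against 0.00 for all genes tested, and 28 of the 36 were below 0. In 16 of the 36 tested members every Hmx1 library lay below every control library, which is 44.4%, against 16.0% of all genes tested. In 2 members, ERO1LB and DERL1, every Hmx1 library lay above, which is 5.56%, against 14.8% of all genes tested. All log2 changes are on the log2(TPM + 1) scale, Hmx1 over control, and come with their standard error (SE) and the adjusted p of limma over all genes tested.

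MANF (GRCh37 chromosome 3, 51422478 to 51426828), a small secreted protein that binds HSPA5 and is released under ER stress, was at 47.8, 35.5 and 55.8 TPM in SKNAS Hmx1, against 78.8, 73.8 and 73.3 TPM in SKNAS control. SEC61B (chromosome 9, 101984346 to 101992897), a subunit of the channel through which new proteins enter the ER, was at 193, 178 and 198 TPM in Hmx1, against 246, 271 and 260.2 TPM in control. All Hmx1 libraries were below all control libraries for both genes. MANF changed by -0.71 ± 0.19 (SE, limma adjusted p = 0.0273) and SEC61B by -0.45 ± 0.12 (adjusted p = 0.0218). Neither fall was called when control replicate 2, control replicate 3 or Hmx1 replicate 2 of SKNAS was left out, with adjusted p between 0.0603 and 0.164. MANF was also not called without control replicate 1, at 0.0954, and both missed without Hmx1 replicate 1, at 0.0622 for MANF and 0.0589 for SEC61B.

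HSPA5, HSP90B1 and several folding enzymes had lower levels in SKNAS Hmx1, without overlap between the arms, and did not pass the test in the fit of all 18 libraries. HSPA5 (chromosome 9, 127997132 to 128003609), the HSP70 of the ER that holds the sensors inactive, was at 208, 192 and 214 TPM in Hmx1, against 371, 346 and 348 TPM in control. PDIA4, a disulfide isomerase, was at 86.0, 89.0 and 87.7 TPM in Hmx1, against 145, 120.1 and 137 TPM in control. WFS1, an ER membrane protein mutated in Wolfram syndrome, was at 2.60, 2.35 and 3.90 TPM in Hmx1, against 7.69, 6.55 and 7.74 TPM in control. These 3 genes were singled out after their values were seen, and in each the arms did not overlap. The log2 changes were -0.79 ± 0.29 for HSPA5 (adjusted p = 0.1105), -0.60 ± 0.22 for PDIA4 (adjusted p = 0.115) and -1.09 ± 0.43 for WFS1 (adjusted p = 0.160). The spread in that fit is shared by all 6 groups, and HSPA5 was more variable in KELLY control, at 84.8, 200.1 and 279 TPM, than in SKNAS control. With SKNAS fitted alone, 9 members fell instead of 2, namely HSPA5, PDIA3, PDIA4, DNAJB9, DNAJB11, MANF, XBP1, SEC61B and WFS1, against a background of 5.35% for a fall, and DERL1 was again the only rise. The split was 1 rise and 4 falls with FPKM and with median-ratio scaling, where HSPA5 and PDIA4 were added. It was 1 rise and 5 falls with quantile normalization, where EDEM1 was added as well. Over all genes tested, 916 rose and 813 fell of 16124 with FPKM. Of 18650 genes, 1114 rose and 920 fell with median-ratio scaling, and 1115 and 1074 with quantile normalization.

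**Figure D2:**
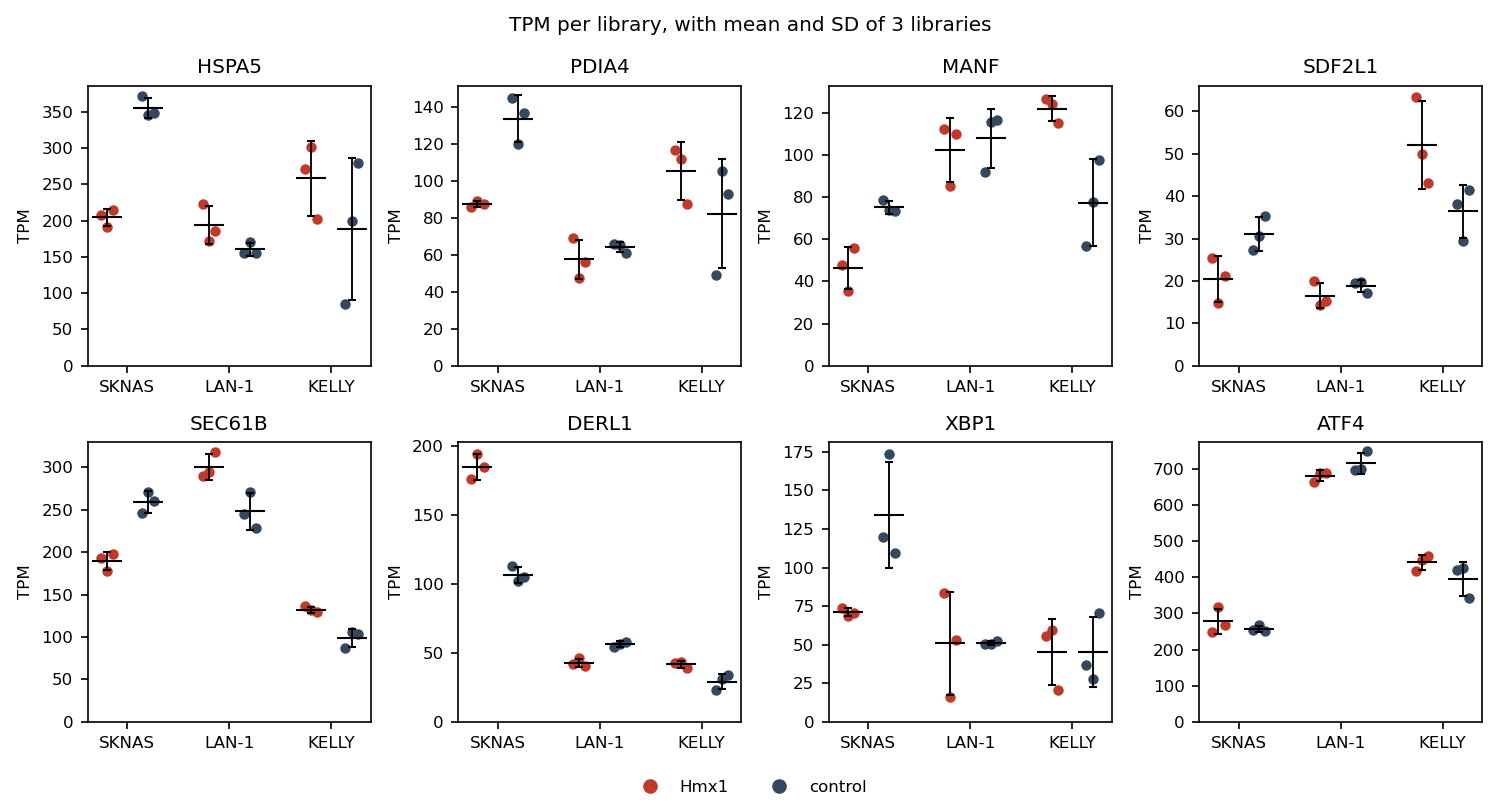
TPM in every library for 8 members, with Hmx1 left of control in each line and bars for the mean and SD of 3 libraries. In SKNAS the Hmx1 libraries of HSPA5, PDIA4, MANF, SDF2L1, SEC61B and XBP1 are all below the control libraries and those of DERL1 all above, while ATF4 overlaps.

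The promoters of 10 members carry a match to a sequence through which ATF6 and XBP1 act. They are shown because 9 of the 10 members with it had a log2 change below 0 in SKNAS. Of the members that fell with SKNAS fitted alone, only HSPA5 and XBP1 were among the 10. PDIA4, DNAJB9, DNAJB11, MANF, SEC61B and WFS1 lacked such a match, and PDIA3 had no promoter to search. Of the 23 members whose promoters lacked it, 18 were below 0 too, so the lower values were not limited to members with it. RefSeq promoters of 250 bases before to 50 bases after the gene start, build GRCh38.p14, were matched by symbol for 33 of the 37 members; PDIA3, DERL1, DERL3 and SEC24D had no entry in the promoter table used. The ER stress response element, ERSE, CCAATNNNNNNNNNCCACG on either strand, was found in 7 of the 33, which is 21.2%, against 27 of 35116 promoters or 0.0769%. Its short form ERSE-II, ATTGGNCCACG, was found in 3 members, HYOU1, SDF2L1 and HERPUD1, which is 9.09%, against 19 promoters or 0.0541%. The unfolded protein response element, UPRE, TGACGTGG, occurred in HYOU1 alone, against 0.729% of promoters, and shares bases with an ERSE-II match there. The element bound by C/EBP and ATF4, TGATGCAA, occurred in HERPUD1 alone, against 0.866% of promoters. Only exact matches were counted, and a match is not evidence of binding. The members were listed as genes of this stress response, so their higher share of matches is not a result of these data. The part of these elements in the changes was not tested.

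In the sequences below, 5′ to 3′ on the strand of the gene, capitals mark ERSE, ERSE-II and UPRE matches. HSPA5 is given for the whole of its 250 bases before the start (chr9:125241344-125241593, minus strand). HYOU1 holds 2 ERSE-II matches and HSP90B1 2 ERSE matches (chr11:119057264-119057403, minus strand, and chr12:103930206-103930349, plus strand). CALR, XBP1, SDF2L1 and HERPUD1 show 1 match each (chr19:12938374-12938412, plus strand; chr22:28800593-28800631, minus strand; chr22:21642104-21642134, plus strand; chr16:56932015-56932045, plus strand).
HSPA5: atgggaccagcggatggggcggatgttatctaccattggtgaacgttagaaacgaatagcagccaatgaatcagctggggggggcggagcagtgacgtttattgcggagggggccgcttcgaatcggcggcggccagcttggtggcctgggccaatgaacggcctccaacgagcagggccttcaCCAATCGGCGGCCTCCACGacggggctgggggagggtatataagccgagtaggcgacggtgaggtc
HSP90B1: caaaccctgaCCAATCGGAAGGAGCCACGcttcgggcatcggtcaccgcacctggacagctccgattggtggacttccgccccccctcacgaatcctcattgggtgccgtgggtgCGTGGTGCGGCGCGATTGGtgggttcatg
HYOU1: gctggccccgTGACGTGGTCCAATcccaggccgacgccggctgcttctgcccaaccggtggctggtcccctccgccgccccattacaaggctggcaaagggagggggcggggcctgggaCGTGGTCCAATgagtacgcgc
CALR: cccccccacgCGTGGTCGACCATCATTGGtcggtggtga
XBP1: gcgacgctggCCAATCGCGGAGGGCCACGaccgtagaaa
SDF2L1: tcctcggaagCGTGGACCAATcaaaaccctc
HERPUD1: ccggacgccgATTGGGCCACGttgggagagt

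The ERSE of HSPA5 lies 66 to 48 bases before the start, that of XBP1 52 to 34 bases before it. The 10 members with an ERSE or ERSE-II match had a median log2 change of -0.29 in SKNAS, with 9 of 10 below 0, and the 23 with neither had -0.14, with 18 of 23 below 0. In KELLY the medians were 0.38 for those with a match and 0.16 for those with neither, and in LAN-1 they were -0.12 and -0.06. Within the matched group the SKNAS changes ran from -0.88 for XBP1 to 0.40 for ERO1LB, an oxidase that makes disulfide bonds. MANF and SEC61B, the 2 called falls, have neither element in this window.

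By role, the median log2 change in SKNAS was lowest in the 3 small ER stress proteins SDF2L1, MANF and CRELD2, at -0.60, of which MANF was called. It was -0.45 for the 3 genes of translocation, export and the ER membrane, of which SEC61B was called, and -0.41 for the 3 J proteins, HSPA5 co-chaperones of which none was called. It was -0.21 for the 3 luminal chaperones, -0.21 for calnexin, calreticulin and calumenin, and -0.19 for the 4 disulfide isomerases and the oxidase ERO1LB, with no call in any of these roles. Among the 8 tested genes of ER-associated degradation the median was -0.18, with DERL1 the only call. The 3 targets of the PERK branch had a median of -0.12 with no call, and DDIT3, the proapoptotic factor CHOP, changed by -0.43 ± 0.17 (adjusted p = 0.174). The 5 sensors and transcription factors had a median of 0.10 with no call.

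XBP1, the transcription factor gene that IRE1 splices, was at 73.7, 68.6 and 70.5 TPM in SKNAS Hmx1, against 119.5, 173 and 109.4 TPM in SKNAS control. The arms did not overlap, and its log2 change of -0.88 ± 0.47 did not pass the test (adjusted p = 0.348). XBP1 varied widely in the other lines, at 83.2, 16.2 and 53.3 TPM in LAN-1 Hmx1 against 50.4, 50.7 and 52.6 TPM in LAN-1 control, and at 55.9, 59.7 and 20.7 TPM in KELLY Hmx1 against 36.6, 28.0 and 70.7 TPM in KELLY control. There the arms overlapped. The table does not part spliced from unspliced XBP1.

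The 3 sensors overlapped between the arms in SKNAS. ERN1 was at 6.82, 5.49 and 6.42 TPM in Hmx1, against 6.47, 6.37 and 6.28 TPM in control. EIF2AK3 was at 23.2, 24.3 and 21.1 TPM in Hmx1, against 17.0, 22.3 and 19.6 TPM in control. ATF6 was at 24.5, 30.0 and 28.7 TPM in Hmx1, against 28.2, 21.3 and 27.3 TPM in control. For all of them the highest control library was above the lowest Hmx1 library. ATF4, the PERK branch factor, was at 249, 317 and 268 TPM in Hmx1, against 253, 267 and 253 TPM in control, and these overlapped too. Their log2 changes were between -0.03 for ERN1 and 0.22 for EIF2AK3, each smaller than its SE, at 0.16 and 0.25.

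DERL1 (chromosome 8, 124025404 to 124054663), a membrane protein through which misfolded proteins leave the ER, was at 176, 194 and 184 TPM in SKNAS Hmx1, against 112.8, 102 and 105 TPM in SKNAS control. The log2 change was 0.79 ± 0.14 (limma adjusted p = 0.00104), and the rise was called under all 17 alternatives. The genes around it moved with it in SKNAS. Of the 23 other tested genes that start within 2 Mb of DERL1, 22 were higher in Hmx1, with a median log2 change of 0.75 and a range of -0.16 to 1.67. ATAD2, at 0.74, TBC1D31, at 0.82, and NDUFB9, at 0.82, are examples. In LAN-1, where DERL1 was at 41.6, 46.3 and 40.6 TPM in Hmx1 against 54.1, 56.6 and 58.1 TPM in control, 20 of the 23 were lower, with a median of -0.30. In KELLY, where it was at 42.9, 43.6 and 38.9 TPM in Hmx1 against 22.8, 31.0 and 33.9 TPM in control, 15 of 23 were higher and the median was 0.14. The part of this neighbourhood in the DERL1 result was not tested. The genes around MANF, SEC61B and HSPA5 had medians of -0.02, 0.08 and 0.04 in SKNAS over 86, 30 and 23 genes. In LAN-1 the genes around HSPA5 had a median of 0.29, with 21 of 23 above 0, and those around SEC61B had 0.23, with 21 of 30 above 0, beside changes of 0.26 for HSPA5 and 0.28 for SEC61B. Their part in the LAN-1 values and in the SEC61B difference between SKNAS and LAN-1 was not tested.

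**Figure D3:**
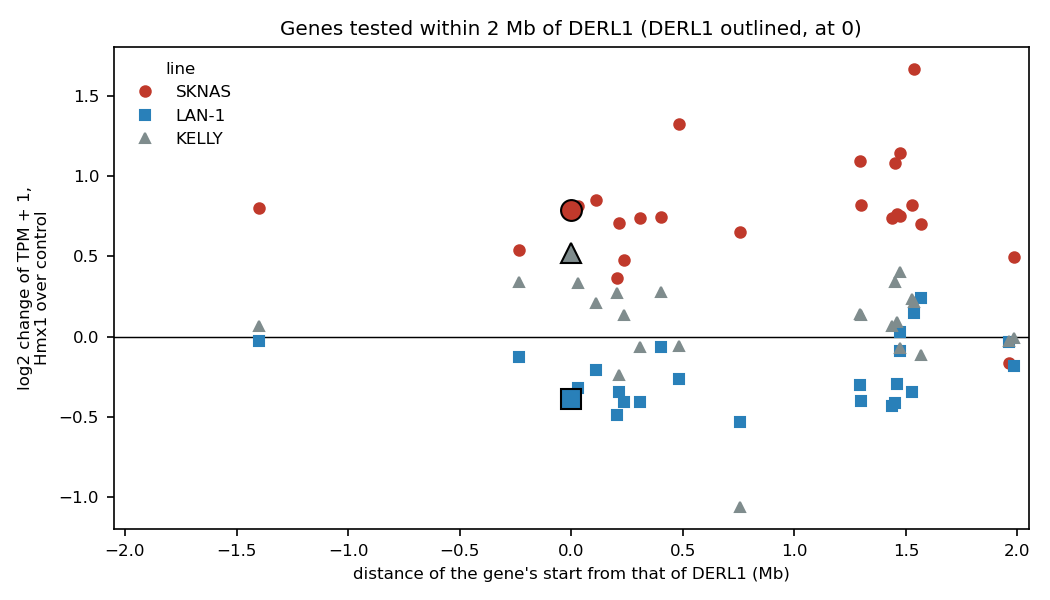
Log2 change of TPM + 1, Hmx1 over control, of DERL1 and of the 23 tested genes that start within 2 Mb of it, against the distance in Mb, with 1 symbol per line and DERL1 outlined at 0. In SKNAS 22 of the 23 neighbours are above 0 and in LAN-1 20 are below 0.

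Markers of other cells also moved between the SKNAS arms. The 7 fibroblast markers, each averaging 1 TPM or more in both arms, summed to 802 to 895 TPM in Hmx1, against 1134 to 1334 TPM in control, and went both ways. COL3A1, COL1A1 and LUM, which make up most of the sum, averaged 391.6, 211 and 71.4 TPM in Hmx1, against 602, 345 and 126 TPM in control, and PDGFRA was lower too, at 10.8 TPM in Hmx1 and 20.3 TPM in control. DCN, PDGFRB and COL1A2 were higher in Hmx1, at 101, 39.9 and 12.4 TPM, against 69.3, 26.9 and 10.8 TPM in control. The 6 markers of macrophages and leukocytes summed to 190 to 286 TPM in Hmx1, against 77.7 to 105.1 TPM in control, nearly all of it PTPRC. CD14 was lower in Hmx1, at 0.523 TPM, against 1.335 TPM in control. CD68, CSF1R, CD163 and AIF1 averaged below 1 TPM in both arms. Whether these transcripts come from other cells, and their part in the SKNAS falls, was not tested.

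Of 174 further ER stress genes in 8 lists, 172 were tested, and in SKNAS 4 rose and 8 fell, against the same background of 4.96% and 3.8%. The ATF4 and CHOP target list held 6 of these 12, 2 that rose and 4 that fell, among 30 tested. PHGDH and PSAT1, which make serine, were at 35.7 ± 3.73 and 67.3 ± 2.01 TPM in Hmx1, against 75.7 ± 12.9 and 132 ± 20.6 TPM in control. Their log2 changes were -1.05 ± 0.19 for PHGDH (adjusted p = 0.00119) and -0.95 ± 0.17 for PSAT1 (adjusted p = 0.00138). STC2, a secreted glycoprotein, and BBC3, the proapoptotic protein PUMA, rose by 1.02 ± 0.24 (adjusted p = 0.00955) and 1.02 ± 0.23 (adjusted p = 0.00754). ATF4 itself, as given above, did not pass the test.

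In the other lists, CLGN, a testis-enriched relative of calnexin, and UGGT2, a glycoprotein folding sensor, rose by 0.74 ± 0.22 (adjusted p = 0.0479) and 0.62 ± 0.15 (adjusted p = 0.0120), and were called under 8 and 15 of 17 alternatives. SEC11A, a subunit of the signal peptidase, fell by 0.43 ± 0.13 (SE, adjusted p = 0.0491) and was called under 7 of 17 alternatives. KDELR3, a receptor that returns chaperones from the Golgi, fell by 0.54 ± 0.15 (adjusted p = 0.0320), a call kept under 11 of 17. MAP3K5, a kinase downstream of IRE1, fell by 1.05 ± 0.26 (adjusted p = 0.0143), to 0.975 ± 0.0424 TPM in Hmx1, against 3.09 ± 0.255 TPM in control. HSPB1, a cytosolic small heat shock protein, fell by 0.65 ± 0.15 (adjusted p = 0.00884). None of the 23 other degradation genes and none of the 11 oligosaccharyltransferase genes was called by limma, with 4 and 1 at an unadjusted p under 0.05. Under each of the 4 other scalings 1 oligosaccharyltransferase gene fell, and 2 or 3 of the degradation genes were called. The median log2 change was below 0 in all 8 lists, from -0.09 for the degradation genes to -0.44 for the cytosolic heat shock genes, and all genes tested had 0.00.

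**Figure D4:**
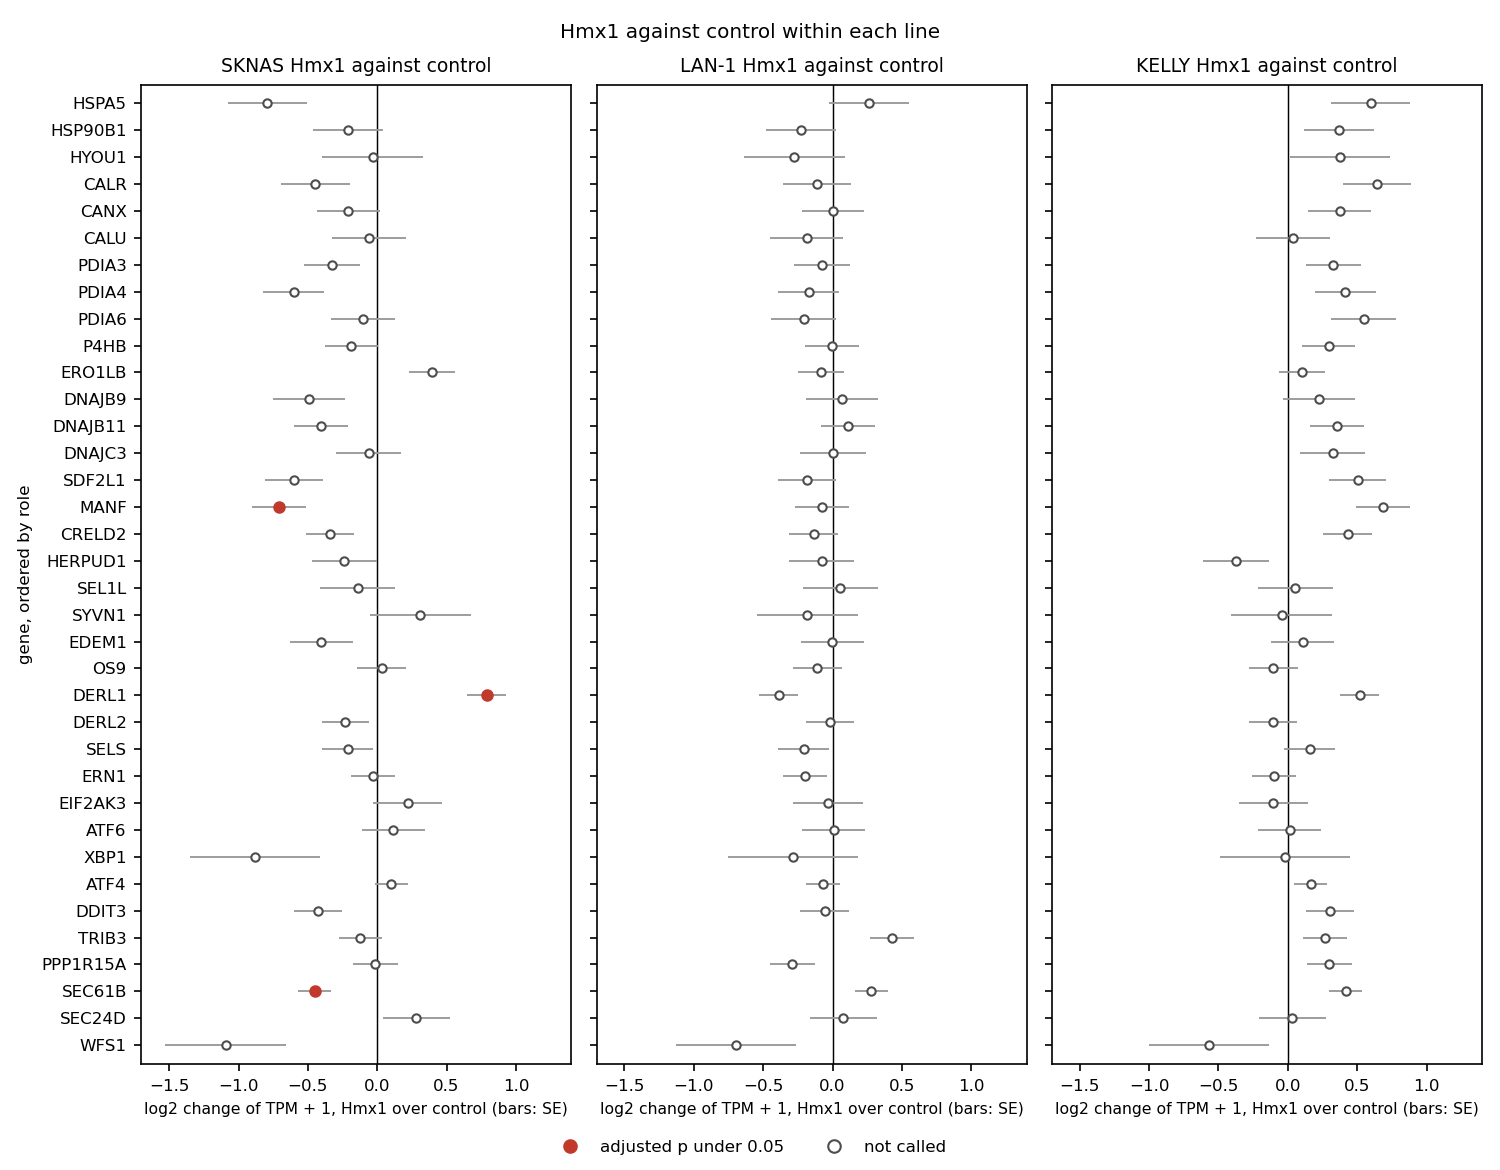
Log2 change of TPM + 1, Hmx1 over control, with SE, for the 36 tested genes in SKNAS, LAN-1 and KELLY; filled points have an adjusted p under 0.05. In SKNAS 28 points are below 0 and 3 are filled, in LAN-1 26 are below 0 and in KELLY 28 are above 0, with none filled in either.

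In LAN-1 no member passed the test between Hmx1 and control tumours, and the members stood close to all genes tested. The background was 0.45% of genes called, 3 members had an unadjusted p under 0.05, and the count was 0 under all alternatives. The median log2 change was -0.08, against -0.05 for all genes tested. Of the 36 members, 5 had every Hmx1 library below every control library, which is 13.9%, against 9.47% of all genes tested. In 3, HSPA5, TRIB3 and SEC61B, every Hmx1 library was above, which is 8.33%, against 6.34% of all genes tested. SEC61B was at 289.9, 294 and 318 TPM in LAN-1 Hmx1, against 245, 271 and 228 TPM in LAN-1 control. Its log2 change of 0.28 ± 0.12 did not pass (adjusted p = 0.610). HSPA5 was at 223, 172 and 186 TPM in Hmx1, against 155, 171 and 156 TPM in control, so the nearest libraries of the arms were at 172 and 171 TPM. MANF was at 112.2, 85.2 and 109.9 TPM in Hmx1 and 91.9, 115.5 and 116.6 TPM in control, and overlapped. Of the 172 further ER stress genes none was called by limma in LAN-1, with 7 at an unadjusted p under 0.05 and a median of -0.06. The 16 cytosolic heat shock genes had a median of -0.35, and 1 or 2 of them fell under each of the 4 other scalings. With median-ratio scaling 1 folding gene and 1 ATF4 or CHOP target rose.

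In KELLY no member passed the test either, and here most members were higher in Hmx1. The background was 0.0912% of genes called, and 7 members had an unadjusted p under 0.05. The median log2 change was 0.28, against 0.02 for all genes tested, and 28 of 36 were above 0. In 6 members, SDF2L1, MANF, CRELD2, DERL1, DDIT3 and SEC61B, every Hmx1 library was above every control library, which is 16.7%, against 4.46% of all genes tested. None had every Hmx1 library below, against 2.21% of all genes tested. MANF was at 127, 124.2 and 115.2 TPM in KELLY Hmx1, against 56.8, 77.8 and 97.8 TPM in KELLY control, a log2 change of 0.68 ± 0.19 (adjusted p = 0.369). SEC61B was at 136, 132 and 129 TPM in Hmx1, against 87.1, 106 and 104 TPM in control, a change of 0.42 ± 0.12 (adjusted p = 0.369). Both sets of libraries were apart, though neither gene was called.

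The size of the shift in KELLY depended on 1 library and on the scaling. KELLY control replicate 1 had a member sum of 2032 TPM, against 3420.4 and 3314 TPM in the other control libraries, and a mitochondrial share of 33.8%. Without it the median log2 change of the members was 0.00, against -0.10 for all genes tested, and 18 of 36 were above 0. With totals taken without mitochondrial transcripts and all libraries kept, it was 0.15, against -0.07 for all genes. The skeletal muscle markers summed to 2.51 to 3.57 TPM in KELLY Hmx1 and 1.84 to 49.1 TPM in KELLY control, and their part was not tested. Of the 172 further ER stress genes none was called by limma in KELLY, with 17 at an unadjusted p under 0.05 and a median of 0.12.

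The change between the Hmx1 and control arms differed between SKNAS and LAN-1 or KELLY for 4 members. Relative to LAN-1, DERL1 had the higher change in SKNAS, by 1.18 ± 0.20 (adjusted p = 0.00118), and SEC61B the lower one, by 0.73 ± 0.17 on the log2 scale (adjusted p = 0.0139). Those were 2 calls among 36, against a background of 4.99%. Relative to KELLY, MANF, SEC61B and SDF2L1 had the lower change in SKNAS, with differences of -1.39 ± 0.28, -0.87 ± 0.17 and -1.10 ± 0.29 (adjusted p = 0.00456, 0.00384 and 0.0360), against a background of 4.85%. Without KELLY control replicate 2 there were 6 such calls, and without KELLY control replicate 3 there were 5, with HSPA5 among them in both. Between LAN-1 and KELLY no member differed, with 7 at an unadjusted p under 0.05 and a background of 0.209%; without KELLY control replicate 1 or 2, DERL1 was called lower in LAN-1. These comparisons share libraries, since each line stands in 2 of them. The mean change over the 3 lines was called for DERL1 alone, at 0.31 ± 0.08 (adjusted p = 0.0448), against a background of 3.54%, although DERL1 was lower in LAN-1 Hmx1 and the call was lost under 18 of 28 alternatives.

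SDF2L1, a small ER protein that forms a complex with DNAJB11, differed between SKNAS and KELLY in its change between the arms. It was at 25.5, 14.8 and 21.2 TPM in SKNAS Hmx1, against 27.3, 30.6 and 35.3 TPM in SKNAS control. It was at 63.5, 49.9 and 43.1 TPM in KELLY Hmx1, against 38.2, 29.5 and 41.5 TPM in KELLY control. Hmx1 was below control in SKNAS and above it in KELLY, with no overlap in either line. The call of the difference was lost under 11 of 23 alternatives.

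Between the control tumours of the 3 lines more members were called than between the arms of any line, and the same held for all genes tested. Of these, 31.5% were higher and 20.5% lower in SKNAS than in LAN-1 control tumours, against 4.96% and 3.8% between the SKNAS arms. HSP90B1, CALR, CALU, DERL1 and SEC24D were higher in SKNAS than in both other lines under all 5 scalings given below, and ATF4, CRELD2 and PPP1R15A were lower. HYOU1, ERO1LB, DNAJB9, SEL1L, DERL1, SELS, the sensors ERN1, EIF2AK3 and ATF6, SEC61B and SEC24D were lower in KELLY than in both other lines. Markers of other cells differed with the lines: the fibroblast markers summed to 1134 to 1334 TPM in SKNAS control, 21.0 to 30.8 TPM in LAN-1 control and 91.6 to 169 TPM in KELLY control. PTPRC averaged 91.9 TPM in SKNAS control and was listed at 0 in LAN-1 and KELLY control. Their part in the differences between lines was not tested. Scaling moved all genes in these comparisons. The median log2 difference of all genes tested was 0.18 for SKNAS against LAN-1, 0.54 for SKNAS against KELLY and 0.34 for LAN-1 against KELLY with TPM, and 0.05, 0.03 and 0.00 with median-ratio scaling. Members are therefore also given as those called in the same direction under all 5 scalings, which were TPM, FPKM, totals without mitochondrial transcripts, median-ratio scaling and quantile normalization. These 3 comparisons share their control libraries. The share of all genes called under all 5 scalings was not computed, so the counts of members under all 5 have no background.

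**Figure D5:**
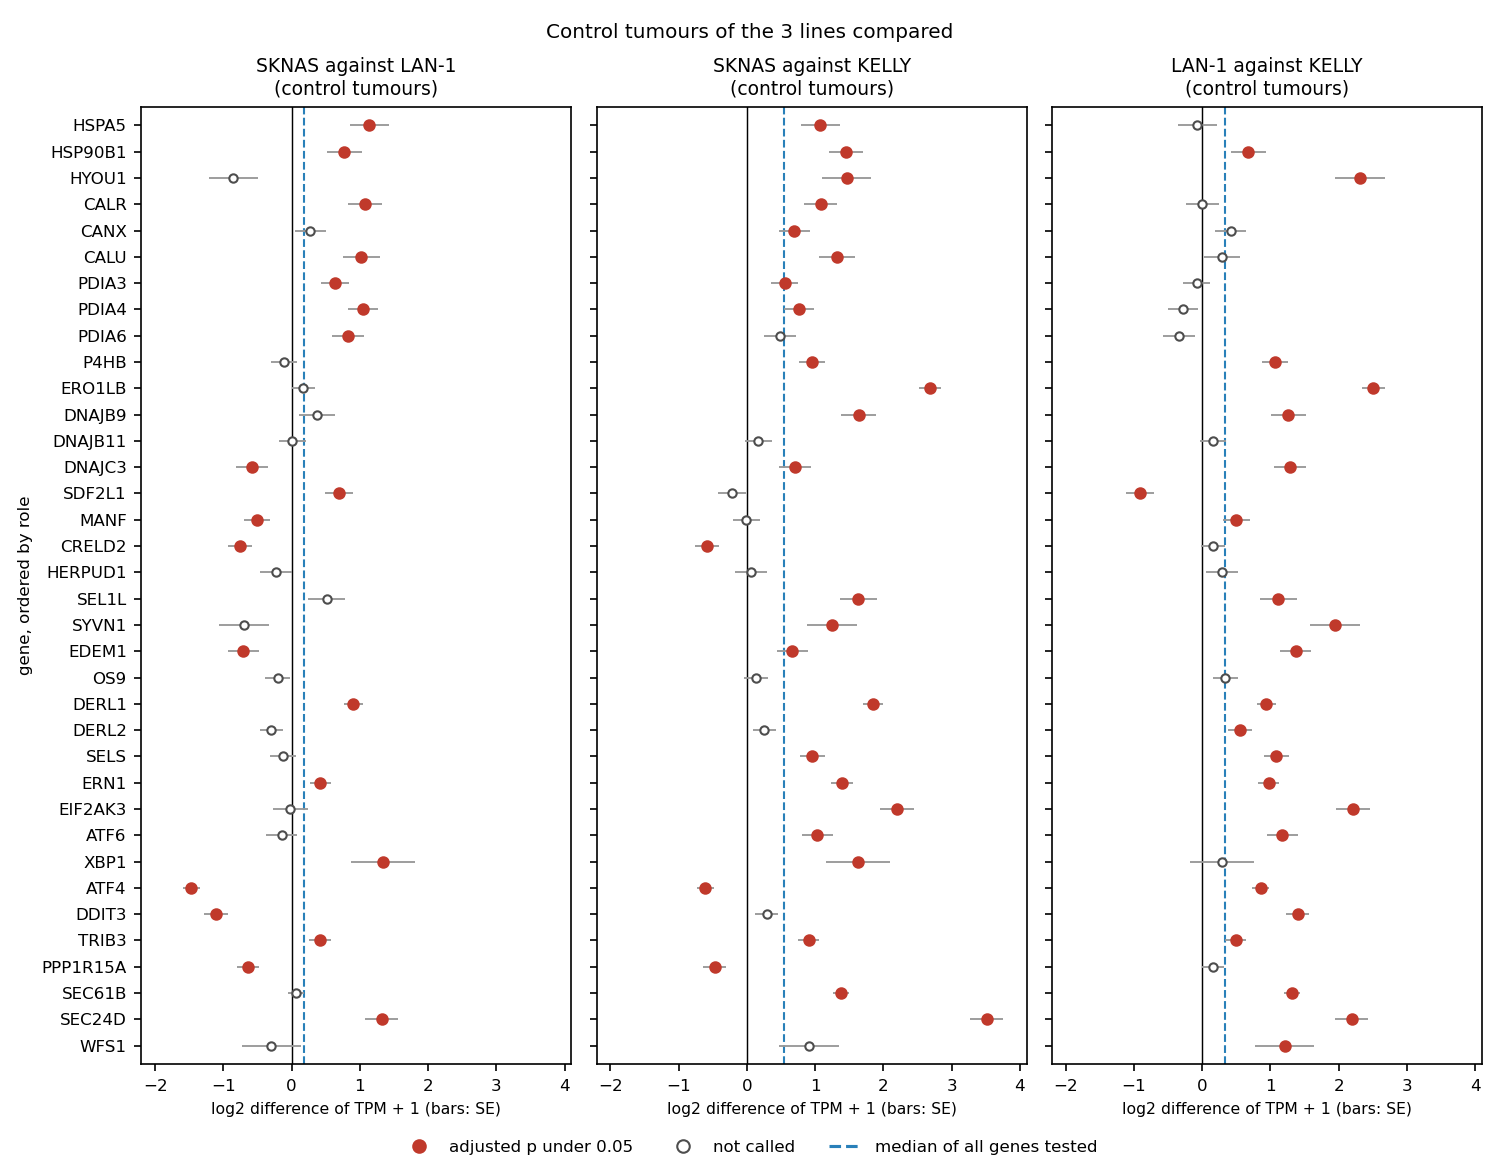
Log2 difference of TPM + 1 between control tumours, first-named line over the second, with SE, for the 36 tested genes; filled points have an adjusted p under 0.05 and the dashed line is the median of all genes tested, at 0.18, 0.54 and 0.34. Most members are right of 0 in both comparisons with KELLY, and ATF4 is left of 0 in SKNAS against LAN-1 and against KELLY.

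Between SKNAS and LAN-1 control tumours 13 members were higher in SKNAS and 7 lower, against 31.5% and 20.5% of all genes tested, with a member median of 0.04. The split was 10 and 12 with median-ratio scaling, against a background of 29.2% and 26.2%. It was 15 and 5 without mitochondrial transcripts, against 7472 and 3307 of all 18650 genes tested. With quantile normalization it was 11 and 11, against 5138 and 5230 genes. Without LAN-1 control replicate 3 it was 8 and 5. Under all 5 scalings HSPA5, HSP90B1, CALR, CALU, PDIA3, PDIA4, PDIA6, DERL1, XBP1 and SEC24D were higher in SKNAS, and CRELD2, EDEM1, ATF4, DDIT3 and PPP1R15A lower. HSPA5 averaged 355 ± 14.2 TPM in SKNAS and 160.5 ± 9.06 TPM in LAN-1, a difference of 1.14 ± 0.29 (adjusted p = 0.00283). The largest rise among the called members was XBP1, by 1.34 ± 0.47 (adjusted p = 0.0239), close to SEC24D, at 1.32, and its call was lost under 5 of 23 alternatives. The largest fall was ATF4, at -1.47 ± 0.12 (adjusted p = 1.47e-08).

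ATF4 averaged 257.5 ± 7.94 TPM in SKNAS control and 715 ± 28.6 TPM in LAN-1 control. LAN-1 Hmx1 libraries were at 663, 689 and 689 TPM and LAN-1 control libraries at 697, 699.7 and 748 TPM, all above every SKNAS library. DDIT3, an ATF4 target, was lower in SKNAS by 1.11 ± 0.17 on the log2 scale (adjusted p = 4.00e-05), and TRIB3, another, was higher by 0.41 ± 0.16 (adjusted p = 0.0359), a call lost under 7 of 23 alternatives. Of the 30 further ATF4 and CHOP targets, 5 were higher in SKNAS and 18 lower, with a median of -1.07, and the median stayed between -1.27 and -0.96 over the 5 scalings. Of the 26 further folding and quality control genes, 10 were higher and 1 lower, with a median of 0.37, between 0.17 and 0.55 over the scalings. The split of these 26 was 9 and 5 with median-ratio scaling and 9 and 4 with quantile normalization. Of all genes tested, 31.5% were higher and 20.5% lower with TPM, and 29.2% and 26.2% with median-ratio scaling. The cytosolic heat shock list had 1 higher and 7 lower of 16.

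Between SKNAS and KELLY control tumours 24 members were higher in SKNAS and 3 lower, against 49.5% and 16.1% of all genes tested, with a member median of 0.93. The split was 14 and 9 with median-ratio scaling, against a background of 31.6% and 30.0%. It was 17 and 9 with quantile normalization, against 5943 and 5581 of all 18650 genes tested. PDIA3 turned to -0.08 under 1 scaling. Under all 5 scalings 14 members were higher in SKNAS, among them HSP90B1, HYOU1, CALR, SEL1L, ERN1, EIF2AK3, ATF6 and SEC61B, and CRELD2, ATF4 and PPP1R15A were lower. SEC24D, a coat protein of the vesicles that leave the ER, was higher by 3.51 ± 0.24 (adjusted p = 1.27e-09), the largest rise with a pseudocount of 1, where ERO1LB had 2.68. ERO1LB reached 4.78 with a pseudocount of 0.1. SEC24D was at 99.6, 112.97 and 126 TPM in SKNAS Hmx1 and 118.8, 67.7 and 98.0 TPM in SKNAS control. It was at 41.9, 32.9 and 41.3 TPM in LAN-1 Hmx1 and 38.7, 36.96 and 33.8 TPM in LAN-1 control, and at 8.13, 8.59 and 5.69 TPM in KELLY Hmx1 and 4.52, 10.1 and 7.93 TPM in KELLY control. The 3 lines did not overlap in either arm. The largest fall was ATF4, by 0.61 ± 0.12 on the log2 scale (adjusted p = 0.000306), close to CRELD2, at -0.59, with KELLY Hmx1 at 418, 448 and 458 TPM and KELLY control at 420.4, 425 and 341 TPM. Of the 30 further ATF4 and CHOP targets, 7 were higher in SKNAS than in KELLY and 11 lower, and their median turned sign with the scaling, at 0.17 with TPM and -0.33 with median-ratio scaling. The 26 further folding genes had 20 higher and 1 lower, with a median of 1.16, between 0.62 and 1.16 over the scalings. Their split was 14 and 4 with median-ratio scaling and 13 and 3 with quantile normalization.

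Between LAN-1 and KELLY control tumours 22 members were higher in LAN-1 and 1 lower, against 38.2% and 13.6% of all genes tested, with a member median of 0.77. The split was 16 and 8 with median-ratio scaling, against a background of 24.8% and 24.8%. It was 17 and 3 without mitochondrial transcripts, against 4898 and 3679 of all 18650 genes tested. With quantile normalization it was 17 and 5, against 4983 and 4287 genes. With FPKM it was 17 and 4, against 5123 and 3181 of 16124 genes. Under all 5 scalings 16 members were higher in LAN-1, among them the degradation genes SEL1L, SYVN1, EDEM1, DERL1 and SELS. The single fall was SDF2L1, by 0.91 ± 0.21 on the log2 scale (adjusted p = 0.00148), with LAN-1 Hmx1 at 20.0, 14.3 and 15.3 TPM and LAN-1 control at 19.5, 19.8 and 17.1 TPM. Of the further ATF4 and CHOP targets 19 were higher in LAN-1 and 2 lower, with a median of 0.86, between 0.43 and 0.86 over the scalings. ERO1LB was higher in LAN-1 by 2.51 ± 0.17 (adjusted p = 1.66e-09), the largest rise with a pseudocount of 1. Its low KELLY values make the size depend on that choice, with 4.58 for a pseudocount of 0.1 and 1.03 for 5, and HYOU1, at 2.32, did not go below 1.82 under any alternative. It was at 9.55, 8.56 and 8.17 TPM in SKNAS Hmx1 and 6.27, 7.70 and 5.41 TPM in SKNAS control. It was at 4.42, 6.16 and 5.13 TPM in LAN-1 Hmx1 and 5.53, 5.69 and 5.45 TPM in LAN-1 control, and at 0.255, 0.367 and 0.102 TPM in KELLY Hmx1 and 0.0295, 0.212 and 0.228 TPM in KELLY control. All 6 KELLY libraries were thus below 1 TPM for this gene, and every other library was at 4.42 TPM or more.

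The 3 sensors were lowest in KELLY in both arms. ERN1 was at 3.97, 4.08 and 3.39 TPM in LAN-1 Hmx1 and 4.45, 4.71 and 4.34 TPM in LAN-1 control, and at 2.14, 1.43 and 1.34 TPM in KELLY Hmx1 and 1.53, 2.01 and 1.90 TPM in KELLY control. EIF2AK3 was at 24.8, 18.1 and 15.9 TPM in LAN-1 Hmx1 and 20.8, 20.4 and 18.1 TPM in LAN-1 control, and at 3.45, 3.48 and 2.61 TPM in KELLY Hmx1 and 1.72, 5.60 and 3.98 TPM in KELLY control. ATF6 was at 31.9, 25.8 and 27.5 TPM in LAN-1 Hmx1 and 29.8, 28.0 and 26.7 TPM in LAN-1 control, and at 11.8, 14.04 and 10.5 TPM in KELLY Hmx1 and 7.30, 17.7 and 12.8 TPM in KELLY control. For all of these genes the KELLY libraries were below those of both other lines, and within each of those lines the arms overlapped except for ERN1 in LAN-1, where Hmx1 was below. The difference of EIF2AK3 was 2.20 ± 0.25 for SKNAS against KELLY (adjusted p = 8.26e-07) and 2.21 ± 0.25 for LAN-1 against KELLY (adjusted p = 1.46e-06), while SKNAS and LAN-1 differed by -0.02 ± 0.25 (adjusted p = 0.968).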

How the data were processed

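Poly(A) RNA of xenograft tumours was measured in 18 libraries, 3 per group. The authors deposited 1 table per library with TPM and FPKM per gene, per the file headers. bcl2fastq, FastQC and STAR and the builds GRCh37 and GRCh38.p12 are named in the submitters' processing notes, which give them no role; the counting tool and any removal of mouse reads were not stated there. Gene coordinates in the tables fit GRCh37. Repeated lines of 1 gene (9 to 15 per library) were summed, and symbols came from a table of Ensembl identifiers, which matched 52181 of 63677.

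Values were analysed as log2(TPM + 1) with limma 3.58.1 (R 4.3.3) on 18650 genes with at least 1 TPM in at least 3 libraries, with 1 mean for each of the 6 groups, an intensity trend and Benjamini-Hochberg adjustment over all genes tested. A gene was called at an adjusted p under 0.05. Tables and figures used Python 3.11.15, and the fit was tested on simulated data. Depth is unknown, since TPM keeps none. The 37 genes, the 8 other lists and the tests were chosen with earlier results of these data known. Library values are given for members called between Hmx1 and control, the 3 sensors, XBP1, ATF4, the largest called changes between lines, and genes said to be singled out; other lists name up to 4 called genes each. Alternatives were other pseudocounts, filters, scalings, priors, FPKM, single-line fits and leaving out each library.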

Additional observations from a re-analysis of the deposited data

Results flagged for a closer look

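The change between the Hmx1 and control arms differed between lines for 4 members by a test of the difference itself, in limma over all genes tested. Against LAN-1 the calls were 2 of 36 members, near the background of 4.99% of all genes tested. Against KELLY they were 3 of 36, with a background of 4.85%. DERL1 had the higher log2 change in SKNAS than in LAN-1, by 1.18, and SEC61B the lower one, with a difference of -0.73. Both differences were called under all 23 alternatives. Of the 23 other tested genes that start within 2 Mb of DERL1, 22 were higher in SKNAS Hmx1 and 20 were lower in LAN-1 Hmx1. The genes around SEC61B had a median log2 change of 0.08 in SKNAS and 0.23 in LAN-1. The part of these neighbouring genes in the 2 differences was not tested. Against KELLY the differences, SKNAS minus KELLY, were -1.39 for MANF, -0.87 for SEC61B and -1.10 for SDF2L1. The first 2 of these were called under all 23 alternatives and that of SDF2L1 under 12 of 23.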

How the results depend on the processing

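Of the called member changes and the alternatives run, only that of PDIA3 between SKNAS and KELLY turned its sign. Members called in SKNAS Hmx1 numbered 3, but 5 with FPKM, 5 under median-ratio scaling, 6 under quantile normalization and 10 with SKNAS fitted alone, and 1 to 3 when a library was left out. Over all 18650 genes tested, 925 rose and 709 fell with TPM, and 1115 rose and 1074 fell with quantile normalization. Between SKNAS and LAN-1 control tumours 20 were called, and 13 to 21 when a library was left out, the lowest without LAN-1 control replicate 3. Differences between SKNAS and KELLY in the change between arms numbered 3, but 7 with FPKM, 8 under median-ratio scaling and 5 under quantile normalization. They numbered 2 to 6 when a library was left out. Over all genes tested, 466 were higher in SKNAS and 438 lower with TPM, and 534 and 637 of 16124 with FPKM. The split was 703 and 669 with median-ratio scaling, and 654 and 745 with quantile normalization. No share of all genes is given for fits with a library left out. Differences between LAN-1 and KELLY in that change numbered 0, but 1 with FPKM and 1 with quantile normalization, and 0 to 1 when a library was left out. The mean over lines had 1 call, but 0 with a pseudocount of 0.1, 0 without mitochondrial transcripts and 0 without the trend, and 0 to 2 when a library was left out. The causes were not tested. Among the named genes of other lists, PHGDH and PSAT1 were called under all 17 alternatives, and the others under 7 to 15. The KELLY median without control replicate 1 was an alternative chosen after seeing the data. No paired analysis was possible because the labels carry no replicate numbers, so whether libraries pair across arms is unknown. With 3 libraries a group and no read depth, small changes of low genes were not detectable.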
